A study of Mus musculus with 6 samples.

Results

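The cytosolic ribosomal protein (RP) genes were examined in hematopoietic progenitors with and without Brd9, a bromodomain protein that belongs to the non-canonical form of the BAF chromatin remodeler. Members were all genes whose symbol has the form Rpl or Rps with a number, an optional letter a, x, y or l and an optional further digit, together with Rplp0, Rplp1, Rplp2 and Rpsa. The rule used names only and no measured value. It found 84 of the 24411 genes in the files, 51 of the large and 33 of the small subunit, 7 of them paralogs of a canonical RP gene. Of the 84, 81 had enough reads to be tested. Among the paralogs, Rps4l is annotated as a pseudogene.

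Poly(A)-selected RNA of C57BL/6 marrow was sequenced in 3 control (CD45.2(+) Brd9fl/fl) and 3 Brd9 KO (CD45.2(+) Mx1-Cre Brd9fl/fl) libraries. Both groups carried the floxed Brd9 alleles and both received 3 injections of pIpC at 20 mg/kg, with cells taken 8 weeks later. The controls carried no Cre. Mx1-Cre is switched on by interferon, which pIpC induces, so deletion is not restricted to blood cells and may be incomplete. The labels name lineage-negative cells of femora and tibiae and transplant recipients, the series design names primary mice injected 4 weeks after birth, and in the methods the cells are Lin-c-Kit+ and sorted from primary mice. The paper's results describe these mice as 4 months old at 8 weeks after pIpC, so the age at injection is not settled. Biological triplicates are described by the study, but the labels do not tie replicates to separate animals. If the libraries of a group shared an animal or pool, the p-values would reflect technical spread alone.

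RP genes encode the protein components of the ribosome, the machine that translates mRNA. The large subunit joins amino acids and the small subunit reads the message, and each protein is needed in matched amounts. Most vertebrate RP mRNAs are short and abundant and begin with a C followed by a run of pyrimidines, the terminal oligopyrimidine (TOP) tract, through which mTORC1 and the RNA-binding protein LARP1 control their translation. In marrow, loss of a single copy of several RP genes causes Diamond-Blackfan anemia, in which red cell production fails.

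Start-site sequences are shown for the 5 RP genes that passed the test described below, since the TOP tract is the sequence feature that links these mRNAs. Each window runs from 40 bases before to 20 bases from the annotated start on the coding strand (RefSeq, GRCm38.p6, the mm10 assembly), and all 5 genes lie on the plus strand. Capitals mark a C followed by at least 4 C or T that begins within 10 bases of the start, and the motif CCGGAAG, which ETS family factors such as GABP bind.
Rps2, chr17:24720023-24720082: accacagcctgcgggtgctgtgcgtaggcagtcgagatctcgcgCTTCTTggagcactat
Rpl12, chr2:32961672-32961731: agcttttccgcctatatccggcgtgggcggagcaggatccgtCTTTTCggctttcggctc
Rps27l, chr9:66946046-66946105: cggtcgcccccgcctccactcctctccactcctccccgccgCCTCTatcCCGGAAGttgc
Rpl26, chr11:68901526-68901585: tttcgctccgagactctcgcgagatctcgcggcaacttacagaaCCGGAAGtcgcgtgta
Rplp0, chr5:115559427-115559486: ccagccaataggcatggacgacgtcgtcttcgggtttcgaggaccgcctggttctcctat

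Rps2, Rpl12 and Rps27l held such a tract within these letters, and Rpl26 and Rplp0 did not. Another annotated start of Rps27l (window chr9:66946373-66946432, not shown) had neither a tract nor CCGGAAG. Start-site entries were found for 63 of the 84 RP genes, with 75 windows. A tract was present at any annotated start for 39 of the 63 genes (61.9%) against 34.4% of all genes with an entry. CCGGAAG, searched on both strands from 250 bases before to 50 after the start, was present at 41.3% of the RP genes against 9.9% of all genes. GGGCGG, the core of the Sp1 site, was found by the same search at 61.9% against 38.2%, AAGATGG, the core of the YY1 site, at 15.9% against 7.3%, and TATAAA on the coding strand at 9.5% against 9.8%. The median log2 fold change was -0.46 for the 36 tested RP genes with a tract, 3 of them called, and -0.42 for the 24 without one, 2 of them called. A match of letters is a description of the window and not a binding site.

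The libraries held 21151031 to 28500168 reads assigned to genes, so that the abundant RP genes rest on deep counts. Brd9 itself was at 45.9, 49.1 and 52.1 CPM (reads scaled to library size with TMM) in control and at 15.6, 13.5 and 21.0 in Brd9 KO. Its log2 fold change was -1.56 ± 0.17 (SE, adjusted p = 0.00345, edgeR), with every KO library below every control. Summed CPM of 10 neutrophil markers, which mark mature cells that the lineage depletion should remove, was 1722 to 3198 in control, 1199 and 1352 in KO 1 and KO 2, and 7811 in KO 3. KO 3 therefore stands apart on these markers. Their part in the RP values was not tested, and values without KO 3 are given beside the results below.

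Fold changes of RP genes in Brd9 KO over control were below 0 almost without exception, and of similar size. Of the 81 tested, 80 had a log2 fold change below 0, against 48.2% of all genes tested, and the exception was Rps27. Their median was -0.44 (interquartile range -0.49 to -0.39), or 73.7% of the control level, while the median over all 12953 genes was 0.02. Only 5 passed edgeR's quasi-likelihood test at a Benjamini-Hochberg adjusted p under 0.1, all lower. That is 6.17% of the RP genes tested against 6.25% of all genes called lower in KO. None was called higher by edgeR, DESeq2 or limma-voom, against 9.19% of all genes by edgeR, and none was higher at an unadjusted p under 0.05. At that unadjusted level 27 (33.3%) were lower, against 12.6% of all genes. DESeq2 called 24 lower (29.6%), against 9.73% of all genes, and edgeR with the replicate number as a block called 8 (9.88%), against 6.11%. All 3 KO libraries lay below all 3 controls for 16 RP genes (19.8%), against 16.3% of all genes. In bulk RNA, fewer cells of a type and less RNA per cell cannot be told apart.

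Libraries of the same group differed about as much as the groups did. Over the tested RP genes, the median deviation from the gene's control mean on the log2 CPM scale was 0.33, -0.28 and -0.06 in control 1, 2 and 3, and -0.51, -0.71 and -0.11 in KO 1, 2 and 3. Control 1 was thus high, KO 1 and KO 2 were low, and KO 3 lay between control 3 and control 2. This order recurred gene by gene. The order control 1, control 3, KO 3, control 2, KO 1, KO 2 from high to low held for 40 of the 81 RP genes and for 1.86% of all genes. KO 1 and KO 2 were below every control for 80 of 81, whereas KO 3 was below every control for 17 and above control 2 for 64.

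**Figure D1:**
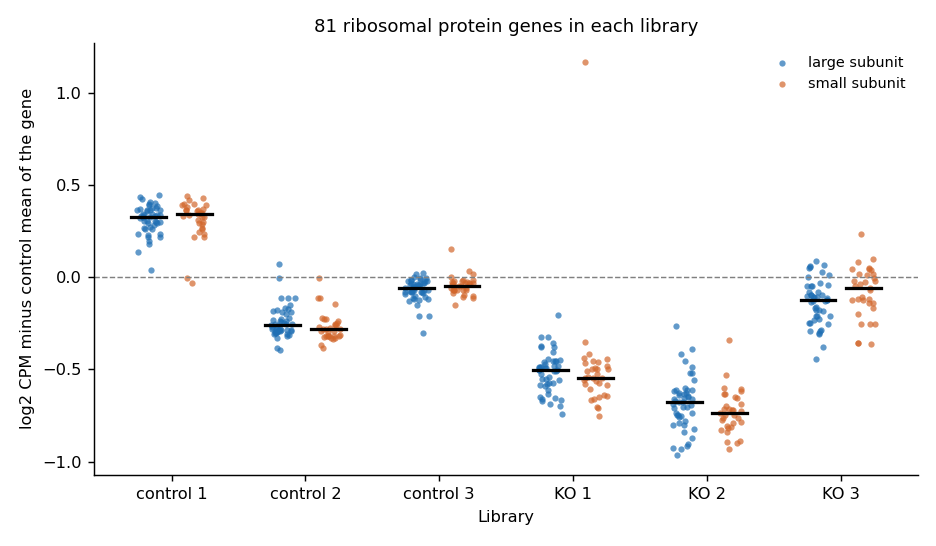
Level of the 81 tested RP genes in each library, as log2 CPM minus the gene's control mean, with 1 point per gene, large and small subunit side by side and a bar at each median. KO 1 and KO 2 sit below the controls, KO 3 overlaps them, and the large and small subunit genes move together in every library; the high point in KO 1 is Rps27.

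Without KO 3, 78 of the 81 RP genes were called lower, with a median log2 fold change of -0.63, against 15.3% of all genes called lower in that fit. The exceptions were Rpl21, Rpl7l1 and Rps27. Leaving out another library had the opposite effect on the calls, over all genes as well as RP genes. No RP gene was called by edgeR without KO 1 (median -0.39), KO 2 (-0.32), control 1 (-0.26) or control 3 (-0.49). In these fits 4, 4, 5 and 17 RP genes were lower at an unadjusted p under 0.05. Without control 2, 1 was called (-0.57), with 58 at that level. Calls in either direction over all genes were 1999 of 12953 with every library and 4150 of 13124 without KO 3. They fell to 641, 801, 1010, 917 and 729 without KO 1, KO 2, control 1, control 3 and control 2. The RP median stayed below 0 in each fit.

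RP genes took a large share of each library. They held 14.7%, 10.6% and 12.2% of reads in control 1, 2 and 3 and 9.33%, 8.59% and 11.6% in KO 1, 2 and 3 (12.5% ± 2.1 against 9.83% ± 1.6, SD, n = 3 each). On the length-scaled TPM scale the shares were 33.7%, 27.9% and 30.8% in control and 25.6%, 24.7% and 28.2% in KO. Control 1 was highest and KO 2 lowest on both scales, and only KO 3 fell within the control range.

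Among the 5 called genes, Rps2 encodes a small subunit protein near the entry of the mRNA channel. Its level was 4496, 3577 and 3611 CPM in control and 2690, 2408 and 3021 in KO, so that all KO libraries were below all controls. The log2 fold change was -0.53 ± 0.15 (SE, adjusted p = 0.0715, the smallest among RP genes). The gene spans chr17:24718116-24721929 (mm10, plus strand, protein coding). Rplp0, the base of the stalk that recruits translation factors (chr5:115559467-115563727), was at 4496, 3456 and 3887 CPM in control and 2808, 2567 and 3205 in KO. These groups did not overlap either, with a log2 fold change of -0.46 ± 0.15 (adjusted p = 0.0962). Rps2 and Rplp0 were the RP genes called lower in each of 5 fits. These were the fit above, the fit without KO 3, and the fits with the length trend described below removed (estimated with and without RP genes). The last was the fit without KO 3 and with the trend removed. It and the trend estimated without RP genes were added after the data were seen. Neither gene was called without KO 1, KO 2, control 1 or control 3, nor at an adjusted p under 0.05 with all libraries.

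Rpl12, which lies beside the stalk base in the large subunit (chr2:32961559-32965345), was at 2580, 1636 and 1903 CPM in control and 1328, 1149 and 1473 in KO. It had one of the largest differences, with a log2 fold change of -0.63 ± 0.19 (adjusted p = 0.0815) and no overlap. Rpl26, a large subunit protein reported to bind the Trp53 mRNA (chr11:68901583-68906989), was at 185, 127 and 112 CPM in control and 85.0, 70.6 and 106 in KO. Its log2 fold change of -0.70 ± 0.22 (adjusted p = 0.0926) was the lowest of all RP genes, but control 3 and KO 3 were nearly equal. The estimated counts of Rpl26 were not whole in any library, which marks reads shared with other genes, and its single values are uncertain. Rps27l, a paralog of Rps27 known as a p53 target (chr9:66946086-66949516), was at 167, 128 and 125 CPM in control and 98.3, 77.7 and 108 in KO, with no overlap. The log2 fold change was -0.57 ± 0.16 (adjusted p = 0.0761).

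**Figure D2:**
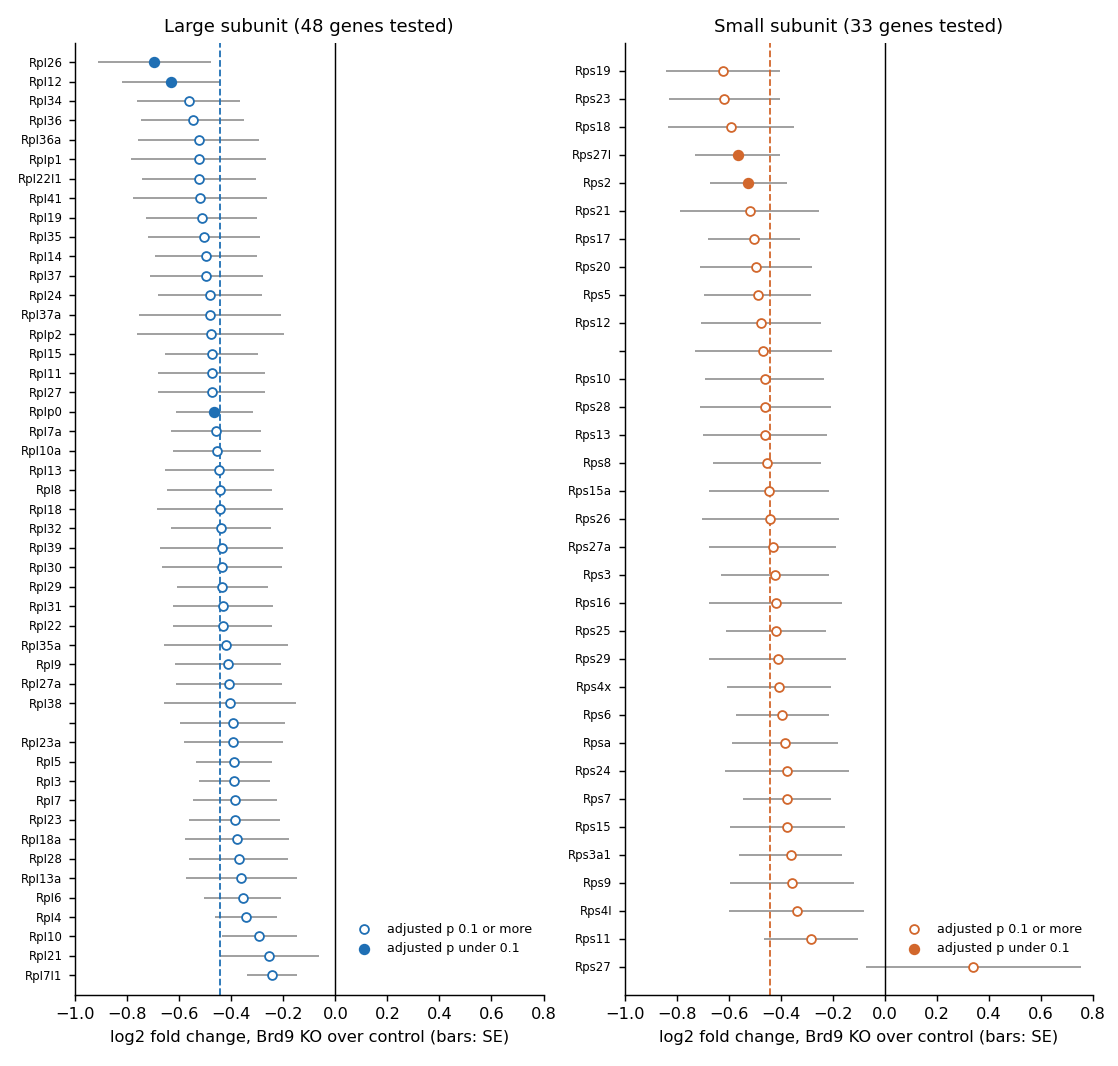
log2 fold change (KO over control, x axis) of each tested RP gene by subunit, with bars of 1 SE, filled points for an adjusted p under 0.1 and a dashed line at the subunit's median. The medians of the large (-0.44) and small (-0.44) subunit coincide, 5 points are filled, and Rps27 lies to the right of 0; 79 of the 81 points carry a gene name.

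The median log2 fold change was -0.44 for the 48 tested large subunit genes and -0.44 for the 33 small subunit genes, with 3 and 2 called. The KO libraries were wholly below control for 13 of the 48 large and 3 of the 33 small subunit genes, against 16.3% of all genes, a difference that was not tested. The log2 ratio of all large to all small subunit reads was 0.26, 0.31 and 0.28 in control and 0.33, 0.36 and 0.23 in KO (0.29 ± 0.03 against 0.30 ± 0.07, SD), so that the control values lay within the KO range. Small subunit genes had a higher median TPM (4285 against 3117) and a shorter median effective length (413 against 541 bases), the length over which a fragment can start.

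In the RP genes mutated in Diamond-Blackfan anemia, control 1 was highest and KO 2 lowest, while the place of KO 3 among the controls varied. Rps19, the first of these genes to be identified, was at 1672, 1054 and 1232 CPM in control and 794, 693 and 1084 in KO. KO 3 exceeded control 2, and the log2 fold change of -0.62 ± 0.22 did not pass (adjusted p = 0.120). Without KO 3 it was -0.83 ± 0.20 (adjusted p = 0.0297). Rps24 was at 2947, 1857 and 2280 CPM in control and 1659, 1405 and 2392 in KO (-0.38 ± 0.24, adjusted p = 0.336). Rps26 was at 1556, 892 and 1141 against 748, 700 and 1199 CPM (-0.44 ± 0.26, adjusted p = 0.309), and Rpl35a at 1231, 791 and 947 against 651, 575 and 992 CPM (-0.42 ± 0.24, adjusted p = 0.286). In these 3 genes KO 3 exceeded both control 2 and control 3. Without KO 3, Rps24 was at -0.63 ± 0.20 (adjusted p = 0.0648), Rps26 at -0.73 ± 0.22 (adjusted p = 0.0537) and Rpl35a at -0.69 ± 0.19 (adjusted p = 0.0415).

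Rpl5 and Rpl11, which are also Diamond-Blackfan genes, bind MDM2 when ribosome assembly is disturbed. Rpl5 was at 2453, 1836 and 2033 CPM in control and 1607, 1458 and 1764 in KO, with no overlap, and its log2 fold change was -0.39 ± 0.15 (adjusted p = 0.136). Rpl11 was at 1738, 1061 and 1159 CPM in control and 929, 820 and 1099 in KO, where KO 3 exceeded control 2 (-0.47 ± 0.21, adjusted p = 0.183). Neither passed the test with all libraries. Without KO 3, Rpl5 was at -0.46 ± 0.16 (adjusted p = 0.0730) and Rpl11 at -0.59 ± 0.21 (adjusted p = 0.0834).

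The acidic stalk proteins Rplp1 and Rplp2 encode the mobile arms that Rplp0 carries. Rplp1 was at 2307, 1425 and 1662 CPM in control and 1120, 922 and 1707 in KO, and Rplp2 at 2166, 1257 and 1627 against 1039, 878 and 1709. In both, KO 3 was above control 2 and control 3, in contrast to Rplp0, and the log2 fold changes were -0.52 ± 0.26 (adjusted p = 0.232) and -0.48 ± 0.28 (adjusted p = 0.307). Without KO 3 they were at -0.82 ± 0.21 (adjusted p = 0.0370) and -0.81 ± 0.22 (adjusted p = 0.0418). Rplp1 and Rplp2 transcripts were short (effective length 267 and 240 bases) and that of Rplp0 was 1158 bases.

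Other members with known roles had log2 fold changes between -0.52 and -0.29. Rps6, the target of the S6 kinases, was at 3346, 2416 and 2791 CPM in control and 2045, 1841 and 2619 in KO (-0.39 ± 0.18, adjusted p = 0.199). Rpsa, also known as the laminin receptor, was the most abundant of the named genes in reads, at 5767, 3836 and 4566 against 3433, 2968 and 4463 CPM (-0.38 ± 0.20, adjusted p = 0.262). Rps27a, made as a fusion with ubiquitin, was at 2568, 1596 and 1930 against 1362, 1152 and 2005 CPM (-0.43 ± 0.24, adjusted p = 0.288). KO 3 exceeded control 2 in all of them. Rpl10, a late-joining large subunit protein mutated in T cell leukemia, was at 2398, 1870 and 2107 against 1651, 1582 and 1974 CPM, a smaller difference (-0.29 ± 0.14, adjusted p = 0.230). Rpl41, the shortest ribosomal protein, was at 1622, 1033 and 1198 against 784, 664 and 1236 CPM (-0.52 ± 0.26, adjusted p = 0.230). Rpl32, with Rps26 one of the 2 genes nearest the median, was at 1793, 1161 and 1408 against 1017, 920 and 1277 CPM (-0.44 ± 0.19, adjusted p = 0.184). Without KO 3 these 6 genes ran from -0.83 (Rpl41, adjusted p = 0.0297) to -0.40 (Rpl10, adjusted p = 0.0866) and each passed. In that fit 78 of the 81 RP genes and 15.3% of all genes were called lower. Without control 1 no RP gene was called, and calls over all genes fell from 1999 to 1010.

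On the TPM scale, which allows levels of different genes to be compared, 71 of the 84 RP genes had a mean over 1000. Rps12 (10121 TPM), Rps29 (8155 TPM) and Rplp2 (7667 TPM) were the highest. Their log2 fold changes in the count test were -0.48 ± 0.23, -0.41 ± 0.26 and -0.48 ± 0.28, and none passed. The 4 genes of lowest mean effective length were Rps28 (128 bases), Rpl38 (136 bases), Rps29 (189 bases) and Rps21 (190 bases). Their log2 fold changes ran from -0.52 to -0.40 and none passed, with KO 3 above control 2 and control 3 in each. Rps21, for example, was at 1082, 640 and 813 CPM in control and 522, 433 and 814 in KO (-0.52 ± 0.27, adjusted p = 0.248). Without KO 3, Rps12 and these 4 genes ran from -0.82 (Rps21, adjusted p = 0.0371) to -0.71 (Rpl38, adjusted p = 0.0398) and each passed. So did nearly all RP genes in that fit (78 of 81), against 15.3% of all genes. None did without control 1, where calls over all genes fell from 1999 to 1010.

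RP transcripts are short, and other genes with short transcripts also had a median log2 fold change below 0. Those other genes were not divided by what they encode. The median effective length was 501 bases over the tested RP genes and 2550 bases over all genes tested. Among genes that are not RP genes, the median log2 fold change rose from -0.32 under 300 bases (123 genes) to -0.25 at 300 to 500 bases, -0.25 at 500 to 1000, -0.11 at 1000 to 2000, 0.03 at 2000 to 4000 and 0.21 over 4000 (3172 genes). RP genes lay below the others in each range, at -0.50 (17 genes), -0.47 (23), -0.43 (27), -0.39 (11) and -0.34 (2). The single RP gene over 4000 bases, Rps15a, was at -0.45. Its length of 5134 bases is the one assigned in the quantification. On the log2 CPM scale its KO 3 value lay 0.60 above the mean of KO 1 and KO 2. The median of that gap was 0.33 for RP genes over 1000 bases. Restricted to genes under 1000 bases and over 500 CPM, the median was -0.45 for 58 RP genes, with 2 called, and -0.25 for 41 others, with 4 called.

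**Figure D3:**
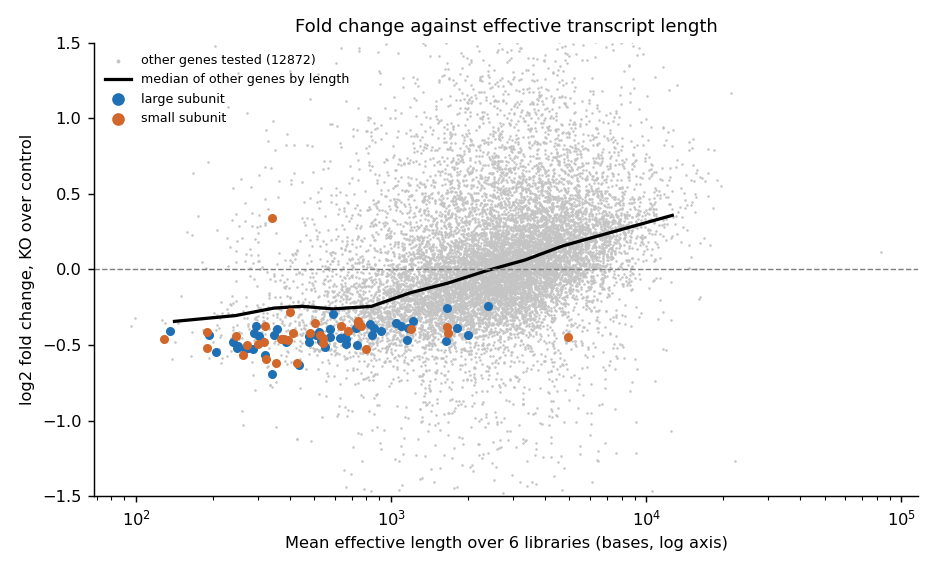
log2 fold change (KO over control) against mean effective length in bases on a log axis, for RP genes (colored by subunit) and the other 12872 tested genes (gray, with a line at their median by length); 322 gray points lie beyond the axis. The gray median rises from -0.32 under 300 bases to 0.21 over 4000 bases, and nearly all RP genes lie below it, Rps27 being far above.

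The spread between libraries was also largest for the shortest RP genes. For RP genes under 300 bases, KO 3 was a median 0.70 (log2 CPM) above the mean of KO 1 and KO 2, against 0.33 for those over 1000 bases. Control 1 was 0.55 and 0.38 above the mean of the other controls in the same ranges. The median SE of the fold change fell accordingly from 0.24 to 0.18, and KO lay wholly below control for 3 of 17 genes under 300 bases and 7 of 14 over 1000, against 16.3% of all genes tested. The mean fragment length implied by the files was 198.6, 204.2 and 203.2 bases in control and 204.1, 205.7 and 200.9 in KO. It was shortest in control 1 and longest in KO 2, the libraries highest and lowest in RP reads. Effective length per library, which depends on fragment length, was used as an offset in another fit. The median log2 fold change of RP genes was then -0.435, against -0.440 without the offset. There 5 RP genes were called lower, with 2018 of all 12953 genes called in either direction. Effects of fragment length beyond that offset were not tested.

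When each library's trend of counts on effective length was removed, the RP difference became smaller and less variable. The median log2 fold change was -0.14, 74 of 81 RP genes were below 0, and 8 were called lower, 9.88% of those tested against 8.45% of all genes. These were 4 of the genes called before (Rps2, Rplp0, Rpl12 and Rpl26) and Rps19, Rpl5, Rpl15 and Rps23, the last 2 named after their values were seen. Rps2 was at -0.27 ± 0.06 (adjusted p = 0.0298), Rplp0 at -0.27 ± 0.06 (adjusted p = 0.0294) and Rps19 at -0.29 ± 0.07 (adjusted p = 0.0381) in that fit, and Rps27l was at -0.17 ± 0.10 (adjusted p = 0.322). With the trend estimated without RP genes, the median was -0.15 and 11 were called lower, against 8.58% of all genes. Without KO 3 and with the trend removed, the median was -0.17 and 14 were called lower, against 10.7% of all genes, and Rps27 was called higher. Removing the trend also removes any difference that truly goes with length.

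Some paralogs replace their parent in certain tissues, and 3 such genes were scarcely detected here. Rpl10l, a testis gene, had 0 reads in every library, for which the upper limit of the expected count is 3 reads per library (95% confidence, counting error only). Rpl3l, known from heart and skeletal muscle, was at 0.30, 0.25 and 0.15 CPM in control and 0.04, 0.07 and 0.29 in KO, and Rpl39l at 0.57, 0.13 and 0.26 against 0.12, 0.04 and 0.19. None of the 3 had enough reads for the test.

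Levels of the other paralogs against their parents differed by pair on the TPM scale. Mean TPM was 773 for Rpl22l1 and 386 for Rpl22, 87.3 for Rpl7l1 and 3197 for Rpl7, and 28.1 for Rps4l and 4374 for Rps4x. That of Rps27l was 575, above Rps27 as listed (24), most of whose reads were assigned to a copy as described below. Rpl22l1, whose parent Rpl22 is needed for lymphocyte development, was at 240, 166 and 183 CPM in control and 123, 106 and 181 in KO (-0.52 ± 0.22, adjusted p = 0.172). Rpl7l1, a paralog of Rpl7, was at 177, 181 and 160 CPM in control and 150, 144 and 145 in KO. The groups did not overlap and its libraries varied little, and its difference was among the smallest (-0.24 ± 0.10, adjusted p = 0.153). Rps4l, a copy of Rps4x annotated as a transcribed processed pseudogene, was at 17.6, 17.9 and 18.4 CPM in control and 10.7, 11.0 and 21.1 in KO (-0.34 ± 0.26, adjusted p = 0.426). Without KO 3, Rpl22l1 was at -0.78 ± 0.17 (adjusted p = 0.0216), Rps4l at -0.73 ± 0.13 (adjusted p = 0.0113) and Rpl7l1 at -0.24 ± 0.11 (adjusted p = 0.145).

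Ratios of paralog to parent within a library do not depend on library scaling. For 5 pairs with at least 10 reads in every library, log2 count ratios were compared by exact permutation of the samples (two-sided), where the smallest possible p is 0.1. Rpl36al, a paralog that the naming rule leaves out, was at a log2 ratio to Rpl36a of -0.95, -0.75 and -0.95 in control and -0.69, -0.71 and -0.68 in KO. The KO ratios were all above the control ratios, by 0.19 ± 0.07 (SE, exact p = 0.1, adjusted over the 5 pairs by Benjamini-Hochberg 0.5). The log2 ratio of Rpl22l1 to Rpl22 was -1.80, -1.77 and -1.86 in control and -1.96, -2.01 and -1.79 in KO, a difference of -0.11 ± 0.07 (exact p = 0.3). Rpl7l1 against Rpl7 differed by 0.14 ± 0.18 (exact p = 0.6) and Rps4l against Rps4x by -0.01 ± 0.28 (exact p = 1). The groups overlapped in these 3 pairs, and no pair could pass at this sample size.

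**Figure D4:**
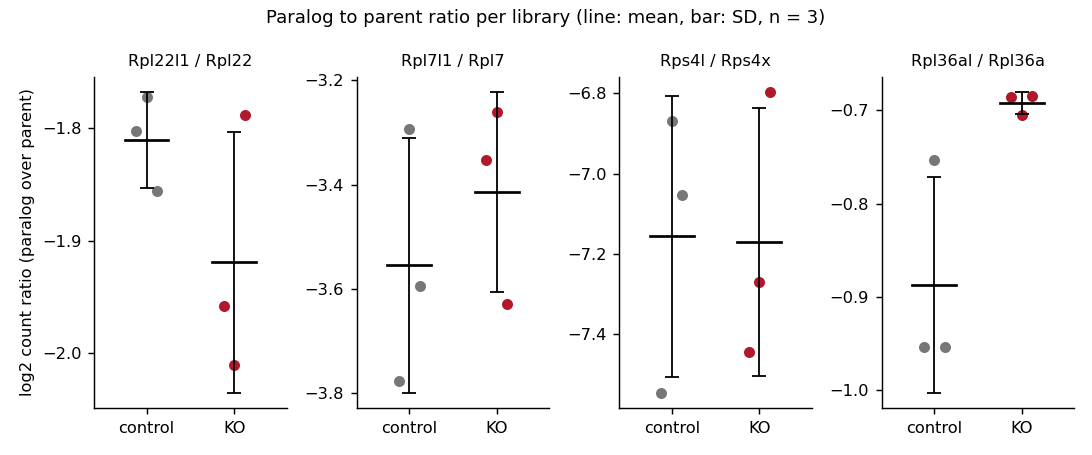
log2 ratio of paralog to parent read counts in each library for 4 pairs, with the mean as a line and the SD of 3 libraries as a bar; each panel has its own y axis. The ratios overlap between groups for Rpl22l1, Rpl7l1 and Rps4l, while the KO ratios of Rpl36al (-0.71 to -0.68) all lie above the control ratios (-0.95 to -0.75).

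Rps27, the parent of Rps27l and the 1 RP gene above 0, was listed at very few reads for an RP gene. It was at 4.1, 3.8 and 4.6 CPM in control and 9.3, 3.3 and 3.2 in KO, so that only KO 1 was high (0.34 ± 0.41, adjusted p = 0.622). A near-identical copy, Rps27rt (chr9:114982366-114982739), held 99.3% of the reads of the pair, at 942, 564 and 720 CPM in control and 513, 429 and 797 in KO. The division of reads between such copies rests on RSEM. Summed with its copy, Rps27 was at -0.35 ± 0.26 (adjusted p = 0.410), below 0 like the other RP genes. The log2 ratio of Rps27l to Rps27 was lower in KO by -0.72 ± 0.52 (exact p = 0.2), and against Rps27 summed with its copy the difference was -0.20 (exact p = 0.6). Rpl34 was also split, with 87.7% of the pair's reads in Rpl34-ps1, and its log2 fold change was -0.56 ± 0.20 alone (adjusted p = 0.119) and -0.41 ± 0.22 summed (adjusted p = 0.260). In all, 13 RP genes had an estimated count that was not whole in at least 1 library. At the upper end of the fold changes, Rps27 was followed by Rpl7l1 and by Rpl21, at 1860, 1297 and 1555 CPM in control and 1242, 1085 and 1624 in KO (-0.25 ± 0.19, adjusted p = 0.417).

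Gnb2l1, the small subunit scaffold RACK1, lies outside the naming rule. It was at 2752, 2040 and 2237 CPM in control and 1714, 1552 and 1877 in KO, with every KO library below every control (-0.45 ± 0.15, adjusted p = 0.103). That missed the threshold, while the fits without KO 3 (-0.52 ± 0.16, adjusted p = 0.0575) and with the length trend removed (-0.24 ± 0.07, adjusted p = 0.0570) passed it.

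Mitochondrial RP genes, whose products form the separate ribosome of that organelle, were the closest comparison. All 77 were below 0, with a median of -0.38, and 22 were called lower, against 6.25% of all genes, and none higher. Without KO 3 the median was -0.49 and 65 were called lower, against 15.3% of all genes. Called examples were Mrpl50 (64.5, 58.5 and 54.0 against 44.8, 37.8 and 40.3 CPM, -0.53 ± 0.11, adjusted p = 0.0323) and Mrpl19 (81.6, 86.9 and 71.9 against 60.7, 57.1 and 55.9 CPM, -0.47 ± 0.10, adjusted p = 0.0373). In both, KO 3 lay close to the other KO libraries and every KO library was below every control. Mrpl38 and Mrpl47 were the others of smallest p, at -0.45 ± 0.10 and -0.59 ± 0.14. With the length trend removed the median was -0.13 and 13 were called lower, against 8.45% of all genes, with Mrpl38 (-0.27, adjusted p = 0.158) and Mrpl47 (-0.31, adjusted p = 0.139) no longer among them.

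Other mRNAs of the translation machinery or with known TOP tracts had fold changes of the same sign. All 21 in the list were below 0 (median -0.31), 4 were called lower, against 6.25% of all genes, and none higher. Without KO 3 the median was -0.39 and 11 were called lower (15.3% of all genes), and with the length trend removed it was -0.16 and 4 were called (8.45%). The called genes were Npm1, a nucleolar chaperone (2127, 1902 and 1689 against 1488, 1317 and 1365 CPM, -0.46 ± 0.13, adjusted p = 0.0695), the elongation factor subunit Eef1d (350, 322 and 287 against 237, 212 and 272 CPM, -0.41 ± 0.13, adjusted p = 0.0937), and the noncoding snoRNA hosts Gas5 (-0.31 ± 0.10, adjusted p = 0.0974) and Snhg1 (-0.49 ± 0.16, adjusted p = 0.0975). With the length trend removed Npm1 (-0.27, adjusted p = 0.111) and Snhg1 (-0.07, adjusted p = 0.764) no longer passed, nor did Gas5 without KO 3 (-0.27, adjusted p = 0.105). Of 9 chaperones and importers that bring RP into the nucleus, 3 were called lower and none higher (median -0.32). Of all genes, 6.25% were called lower and 9.19% higher. The 3 were Tsr2, the chaperone of Rps26 (-0.37 ± 0.11, adjusted p = 0.0813), Bccip (-0.41 ± 0.12, adjusted p = 0.0856) and Grwd1 (-0.40 ± 0.12, adjusted p = 0.0908). Bccip (-0.20, adjusted p = 0.151) and Grwd1 (-0.29, adjusted p = 0.132) did not pass with the trend removed.

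Of 15 genes of mTORC1 and LARP1 signaling, which regulate TOP mRNAs, 5 were below 0 and the median was 0.05. Their median effective length was 3055 bases, and other genes of 2000 to 4000 bases had a median of 0.03; the difference from RP genes was not tested. Of all genes, 6.25% were called lower and 9.19% higher. The 1 called lower in this list was Eif4ebp1, an inhibitor of cap-dependent translation (102, 86.5 and 89.7 against 63.3, 48.3 and 70.8 CPM, -0.61 ± 0.15, adjusted p = 0.0506). Among 9 factors that bind RP promoters (median 0.10), Myc, a driver of ribosome synthesis, was lower at 305, 301 and 276 against 207, 220 and 186 CPM (-0.52 ± 0.11, adjusted p = 0.0280). Its relative Mycn was higher at 10.4, 6.6 and 8.5 against 16.7, 15.1 and 13.7 CPM (0.83 ± 0.19, adjusted p = 0.0406). Both passed with no overlap between groups, while 16.3% of all genes had KO wholly below control and 17.2% wholly above. Of 9 tested genes of the MDM2 and p53 response (median -0.21), Trp53 alone was called, against the same shares of all genes. It was lower at 242, 216 and 198 against 166, 170 and 158 CPM (-0.41 ± 0.11, adjusted p = 0.0582).

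**Figure D5:**
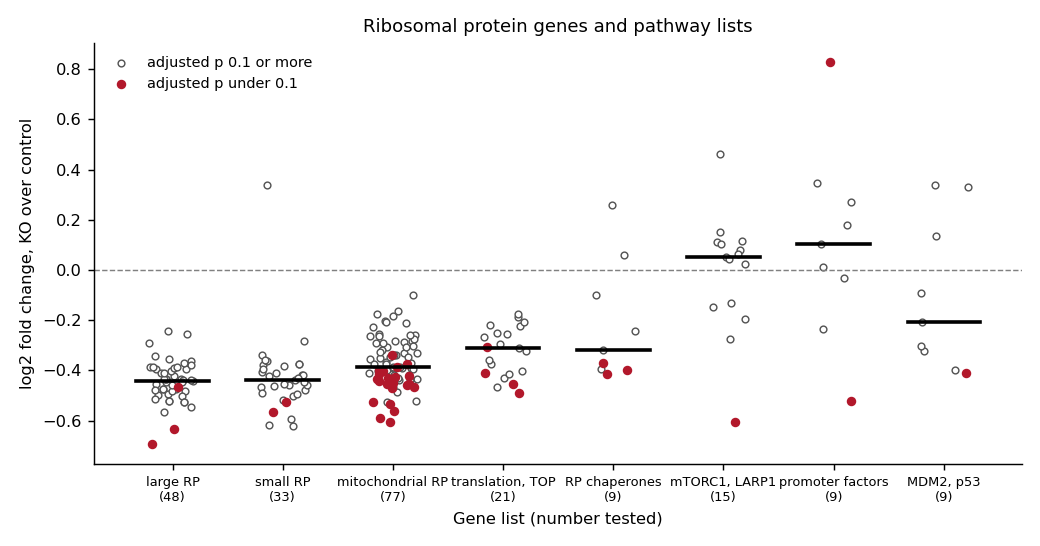
log2 fold change (KO over control) of RP genes by subunit and of 6 related gene lists, with 1 point per tested gene, red for an adjusted p under 0.1 and a bar at the median. The medians of large (-0.44), small (-0.44) and mitochondrial RP (-0.38), translation and TOP (-0.31) and RP chaperone (-0.32) genes are below 0, and those of mTORC1 and LARP1 (0.05) and promoter factor (0.10) genes are above.

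Marker genes of other cell types differed between the groups too. Of all genes tested, 9.19% were called higher and 6.25% lower. Taken singly, 16.3% had every KO library below every control and 17.2% had every KO library above. Summed CPM was 11180 to 12540 in control and 7351 to 7568 in KO for 8 stem and progenitor markers, a sum dominated by Mpo (-0.98, called lower). Of the others Gata2 (1.27), Meis1 (1.12) and Ptprc (0.47) were called higher, and the median log2 fold change of the list was 0.22. For 9 erythroid markers it was 2260 to 2497 and 1249 to 1329, with 7 called lower, and for 7 megakaryocyte markers 1630 to 2693 and 3541 to 4874, with 5 called higher. For 9 stromal markers, which blood cells should lack, it was 36.5 to 55.0 and 110 to 175, with 7 called higher, and for 6 endothelial markers 118.5 to 135 and 170.5 to 205, with 4 called higher. Unlike the RP genes, the erythroid, megakaryocyte, stromal and endothelial sums did not overlap between groups. For 7 macrophage markers the sums overlapped (91.6 to 131 and 97.3 to 146), with 5 called higher, C1qb most (2.18), and Vcam1 called lower (-1.40). For 7 B cell markers they overlapped as well (85.2 to 99.6 and 66.8 to 134), with 2 of 6 tested called lower. For 6 T and NK cell markers they did not (245 to 316 and 140 to 196), with Nkg7 called lower (-0.97) and Gzma (2.69) and Ncr1 (1.26) higher. Among the listed markers, none of any list was at 0 in every library. The part of these cell type differences in the RP values was not tested.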

How the data were processed

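RNA-seq was performed on 6 libraries, 3 control and 3 Brd9 KO, grouped by the sample titles. Per the study's methods, the authors aligned reads to mm10 with STAR and quantified genes with RSEM through an nf-core pipeline. Per the labels the libraries were unstranded, while a stranded kit is named in the methods, so antisense overlaps make a gene's value uncertain. The deposited expected counts (estimated counts that divide shared reads) were rounded to whole numbers, and the deposited TPM values, which the authors' RSEM run scaled by effective length, were used for levels between genes.

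Genes were filtered with filterByExpr, scaled by TMM and tested with edgeR 4.0.16 (quasi-likelihood, no covariate) in R 4.3.3, with Benjamini-Hochberg adjustment over 12953 genes and a threshold of 0.1. SE was taken as the fold change on the log2 scale over the square root of F, and SD is over 3 libraries. Counts had a common biological coefficient of variation of 0.175. Depth was 21151031 to 28500168 reads per library. Independent hypothesis weighting, which the study added to DESeq2, was not used here. DESeq2 1.42.0 alone, limma 3.58.1, other scalings, filters, length corrections and each library left out were alternatives. The length trend was a lowess fit (span 0.3) of log2 counts on log2 effective length per library. Paralog ratios used a pseudocount of 0.5. The procedure was tested on simulated data.

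Members, gene lists, tests and alternatives were chosen with earlier results of these data known. Genes were named in the text by a second rule, apart from the membership rule, that took paralogs, RP genes of known role, called genes, and those of extreme fold change, TPM and length, the 2 nearest the median, and up to 4 called genes per related list. The marker lists are described by their sums. A few genes picked by this second rule are not reported here. Rack1 is listed as Gnb2l1 in the files, and Rps3a2 and Rps3a3 were not matched. Positions are from an mm10 annotation.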

Additional observations from a re-analysis of the deposited data

How the results depend on the processing

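The median RP difference stayed below 0 in every setting tried, but the number of RP genes called lower (5) did not hold. It was 24 with DESeq2, 1 with limma on log2(TPM + 1) without a filter, 0 at an adjusted p under 0.05 (edgeR, with 27 at an unadjusted p under 0.05), 8 with the length trend removed, 11 with that trend estimated without RP genes, 14 (and 1 higher) without KO 3 and with the trend removed, and between 0 and 78 when a library was left out, KO 3 giving 78. Calls over all genes in either direction also moved with the library left out, from 641 (KO 1) to 4150 (KO 3). Scaling by library total moved the median of all genes to 0.10 and that of RP genes to -0.36, and log2(TPM + 1) moved them to 0.19 and -0.23.

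Of the same-numbered libraries, control 2 and KO 2 deviated together (r = 0.61) and those numbered 1 and 3 did not (r = -0.10 and 0.01), so the numbers were not taken to pair the samples. With a replicate block 8 RP genes were called lower, 9 with the length offset as well, and 13 with the block and the trend removed.

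For the related lists without mitochondrial RP genes (10 called lower, 1 higher), lower calls were 18 with DESeq2, 4 by library total, 1 by limma on log2(TPM + 1), log2(TPM + 0.1) and the unfiltered TPM, 1 at an adjusted p under 0.05, 19 (and 3 higher) with the block and the trend removed, and 0 to 24 (higher, 0 to 4) with a library left out. Higher calls were 2 with the trend removed, also when estimated without RP genes, and 3 without KO 3 and with the trend removed. Snhg1 reversed to 0.085 in that last fit. The difference in the Rps4l to Rps4x ratio ran from -0.21 to 0.13 with a library left out, and reversed to 0.13, 0.038, 0.12 and 0.035 without control 2, control 3, KO 1 and KO 2. The cause of these changes was not tested. The alternatives added after seeing the data were copies summed, the trend without RP genes, the block with the trend, and the trend without KO 3. Of the other values, 954 kept their side of the threshold, 187 no longer passed and 54 newly passed. The 954 include changes of sign in genes that passed in neither fit. Examples are Rpl10 (-0.29 to 0.003) and Rpl38 (-0.40 to 0.04) with the length trend removed.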
